A study of Homo sapiens with 3 samples.

Results

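SNORD13 (U13), SNORD118 (U8) and SNORA73B (U17b) are small nucleolar RNAs (snoRNAs) that act in the maturation of ribosomal RNA, grouped here as processing snoRNAs. They were taken by name from the deposited lists of reads on box C/D and box H/ACA snoRNAs, and are 3 of the 260 snoRNA entries with reads. The cells were HEK293, a line long established from human embryonic kidney, kept in DMEM with 10% serum and antibiotics, and their small RNA was sequenced. The series holds 1 group of 3 libraries without a treatment, numbered 1 to 3 here with no meaning to the order. Total RNA was purified on magnetic beads for small RNA before adapter ligation, per the labels' protocols. Separate cultures are not mentioned in the labels, so p-values here speak of the variation among 3 libraries that could be technical repeats.

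Most box C/D snoRNAs guide 2′-O-methylation of rRNA and most box H/ACA snoRNAs guide pseudouridylation. A few are instead needed for the cleavage or folding of the precursor rRNA, or for the acetylation of rRNA. SNORD118 is required for the maturation of 5.8S and 28S rRNA, as first shown in frog oocytes. SNORD13 pairs with 18S rRNA and is needed for the acetylation of a cytidine in it. SNORA73B belongs to the U17 family, whose yeast relative snR30 is essential for 18S rRNA formation. SNORD13 and SNORD118, like U3, are transcribed from promoters of their own and carry a trimethylguanosine cap at the 5′ end, whereas SNORA73B is released from an intron of its host transcript.

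Reads reached positions up to 104 in SNORD13, 136 in SNORD118 and 205 in SNORA73B, counted from the 5′ end. The highest position reached was taken as the length of each entry, so the 3′ end used here is set by the reads. For SNORD13 that is the annotated length, while for SNORA73B it is 1 base more than in GENCODE and equal to the RefSeq record, so position 2 was taken as the first GENCODE base. The SNORD118 length taken from the reads is 1 base shorter than its RefSeq record of 137 nt. Position 1 was taken as the first base of that record, which leaves a doubt of 1 base. The sequences shown are those at which the reads began or ended. The SNORD118 stretch covers positions 51 to 77 (chr17:8173512-8173538, minus strand), with box C, the protein-binding motif TGATGA, in capitals. The sequences come from GENCODE 29 (GRCh38). The SNORA73B sequence covers positions 2 to 205 and the SNORA73A sequence its positions 2 to 207. The last 40 bases of each are in capitals, because 21 of the 29 short SNORA73B reads ended at its last 3 positions. Both are printed so that the annotated bases of the copies can be compared.
SNORD118: gaacaTGATGAttggagatgcatgaaa
SNORA73B: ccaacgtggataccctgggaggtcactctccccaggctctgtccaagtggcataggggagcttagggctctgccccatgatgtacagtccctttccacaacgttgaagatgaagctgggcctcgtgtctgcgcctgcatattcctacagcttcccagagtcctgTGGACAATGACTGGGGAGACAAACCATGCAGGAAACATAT
SNORA73A: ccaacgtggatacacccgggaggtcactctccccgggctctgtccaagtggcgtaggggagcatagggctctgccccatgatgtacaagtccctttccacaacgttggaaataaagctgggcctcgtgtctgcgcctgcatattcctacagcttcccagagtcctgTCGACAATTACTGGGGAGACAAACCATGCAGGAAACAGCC

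The SNORA73B and SNORA73A sequences were identical at 192 of 206 aligned positions (93.2%), and at 35 of the last 40. Of 127 SNORA73B reads aligned without gaps, 3 covered a stretch whose annotated bases also occur unchanged in SNORA73A, all of them in library 1. Reads aligned with gaps were left out. The lists give the positions of reads and not their bases, so from which copy a read came was not tested. The ACA box that marks the 3′ end of box H/ACA snoRNAs began at position 200 of SNORA73B, with 3 bases after it.

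In GENCODE 29 (GRCh38), SNORD13 lies on chromosome 8 at 33513475 to 33513578 on the plus strand, opposite to an untranslated exon of TTI2. SNORD118 lies on chromosome 17 at 8173454 to 8173587 on the minus strand, within an untranslated stretch of the transcript TMEM107-205 and on its strand. SNORA73B lies on chromosome 1 at 28508559 to 28508762 on the plus strand, in introns of SNHG3 and RCC1, next to its close copy SNORA73A at 28507366 to 28507571.

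Libraries 1, 2 and 3 held 19989, 11958 and 19092 raw counts, and the 3 snoRNAs together had 199, 83 and 282 of them, a mean of 1.06% ± 0.39 (SD, n = 3). Library 2 had more short reads than the others, with 27.3% of all its counts at up to 40 nt, against 11.9% and 12.1% in libraries 1 and 3. The longest reads of any snoRNA had 238, 181 and 193 nt in libraries 1, 2 and 3. The labels mention no molecular identifiers, so reads may repeat a molecule, and the exact 95% binomial (Clopper-Pearson) intervals therefore cover counting error only, as do limits for a count of 0, which take 3 counts as the floor.

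SNORD118 was read at a similar level in all libraries, SNORD13 varied somewhat more, and SNORA73B varied most of the 3. SNORD13 had 62, 24 and 65 counts in libraries 1, 2 and 3, which is 0.310% (95% interval 0.238% to 0.397%), 0.201% (0.129% to 0.298%) and 0.340% (0.263% to 0.434%) of the library. SNORD118 had 75, 43 and 93 counts, which is 0.375% (0.295% to 0.470%), 0.360% (0.260% to 0.484%) and 0.487% (0.393% to 0.596%). SNORA73B had 62, 16 and 124 counts, which is 0.310% (0.238% to 0.397%), 0.134% (0.0765% to 0.217%) and 0.649% (0.540% to 0.774%). The SNORA73B intervals did not overlap between any of the libraries, while those of the others overlapped in every pair of libraries. For how many other snoRNAs the intervals failed to overlap was not counted, so this is not shown to be particular to SNORA73B. The highest library share exceeded the lowest 1.70-fold for SNORD13, 1.35-fold for SNORD118 and 4.85-fold for SNORA73B. The median of this fold was 1.71 over 106 other box C/D snoRNAs and 2.44 over 14 other box H/ACA snoRNAs, taking those that reached 10 counts in each library.

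Per 100 nt of RNA, the share of counts averaged 0.299% ± 0.051 for SNORD118, 0.273% ± 0.071 for SNORD13 and 0.178% ± 0.13 for SNORA73B (SD, n = 3). Per 100 nt, SNORD13 and SNORD118 differed by less than the spread between libraries. The log2 ratio of SNORD13 to SNORD118 was -0.16 ± 0.28 (SD, n = 3, two-sided exact sign-flip permutation p = 0.5). On the same scale SNORD13 was above SNORA73B in 3 of 3 libraries by a log2 ratio of 0.86 ± 0.76 (SD, n = 3). SNORD118 was above SNORA73B in 3 of 3 by 1.02 ± 0.93 (SD, n = 3). The exact permutation p was 0.25 for each, the smallest that 3 libraries allow. Adjusted over the 3 pairs by the Benjamini-Hochberg method, the exact permutation p was 0.5, 0.375 and 0.375. These orders depend on the division by length. As plain shares of counts, SNORD13 was above SNORA73B in 1 of 3 libraries and equal to it in library 1 (log2 ratio -0.12 ± 0.76). SNORD118 was above SNORA73B in 2 of 3 (0.43 ± 0.93). The plain log2 ratio of SNORD13 to SNORD118 was -0.54 ± 0.28, above 0 in 0 of 3 libraries (SD, n = 3, exact permutation p = 0.25, adjusted 0.75). In library 3 the values per 100 nt lay close together, at 0.327%, 0.358% and 0.317% for SNORD13, SNORD118 and SNORA73B. A read level here counts fragments that were captured, and fewer RNAs cannot be told apart from fewer RNAs of a size that could be read.

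**Figure D1:**
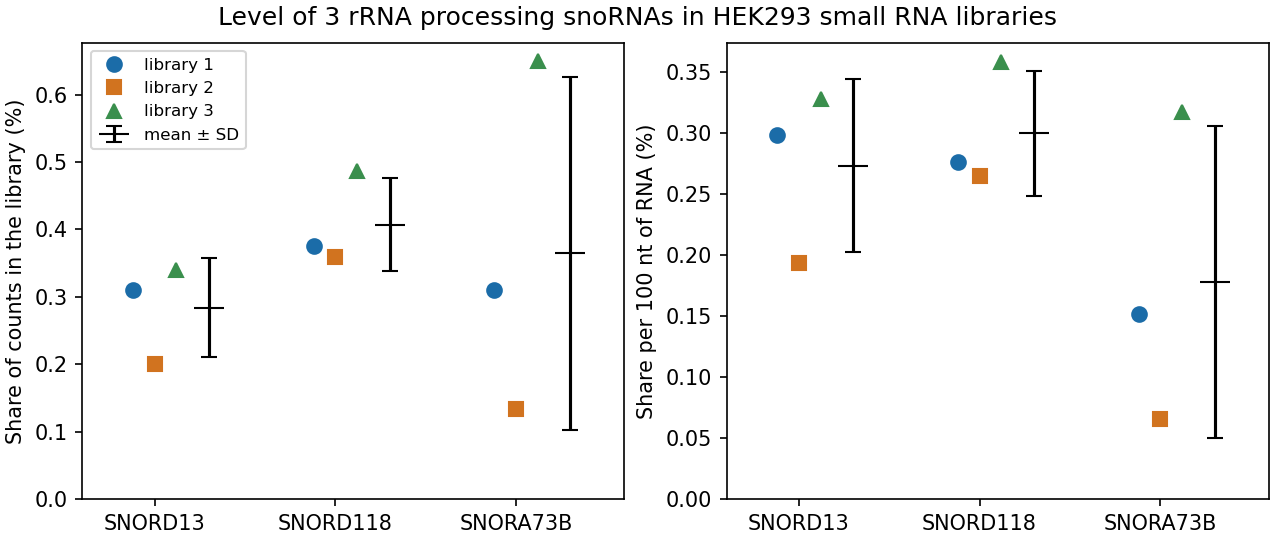
Left, the share of each library's counts (%) on SNORD13, SNORD118 and SNORA73B; right, the same share per 100 nt of RNA. Coloured symbols are the 3 libraries and black bars the mean ± SD; SNORA73B has the widest spread, with 0.134% in library 2 and 0.649% in library 3.

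SNORD13 and SNORD118 were almost never read from their 5′ end. None of the 151 SNORD13 reads started before position 17, a count of 0 that allows a share of up to 1.99%. Reads starting at position 17 or 18 numbered 31 of 62, 9 of 24 and 56 of 65 in libraries 1, 2 and 3. Of the 211 SNORD118 reads, 18 started before position 50, and 23 of 75, 21 of 43 and 73 of 93 started at position 50 or 51. SNORA73B reads did start at the 5′ end, with 50 of 62, 5 of 16 and 115 of 124 reads at positions 1 to 5.

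As a share of reads, starts at positions 1 to 5 made up 0% in all libraries for SNORD13. They made up 2.67%, 0% and 0% for SNORD118 (2, 0 and 0 reads), and 80.6%, 31.3% and 92.7% for SNORA73B. Other box C/D snoRNAs together had 85.1%, 76.4% and 81.6% of their reads starting there, and other box H/ACA snoRNAs 85.7%, 43.2% and 78.8%. SNORD13 and SNORD118 lay below that pooled box C/D share in 3 of 3 libraries. Over the same 106 other box C/D snoRNAs, the mean share per snoRNA had a median of 88.8% and ranged between 0% and 99.5%, so a low share was not limited to these 2. SNORA73B was low in library 2, in which the other box H/ACA snoRNAs were low too.

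The starts of SNORD13 and SNORD118 lay just before box C. In SNORD13 the TGATGA motif begins at position 23, so reads from position 18 started 5 nt before it. In SNORD118 it begins at position 56, so reads from position 51 also started 5 nt before it, or 4 nt if the entry begins 1 base later than assumed. Of 28 other box C/D snoRNAs for which this could be measured, 20 had their commonest start 5 or 6 nt before the first TGATGA, and the median was 6 nt. In 25 of these 28 that start was at positions 1 to 5 of the RNA, with a median at position 1. The 28 are only a part of the box C/D snoRNAs with the motif, which 81 of 123 sequences hold, and need not stand for the rest. SNORD13 and SNORD118 thus had their commonest start at a similar distance from box C, but at position 18 and 51 of the annotated RNA. TGATGA occurs in 65.9% of 123 box C/D snoRNA sequences and in 3.30% of 91 box H/ACA sequences, and its reverse complement TCATCA in 0.813% of the box C/D sequences. A match in letters does not by itself show a bound site.

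**Figure D2:**
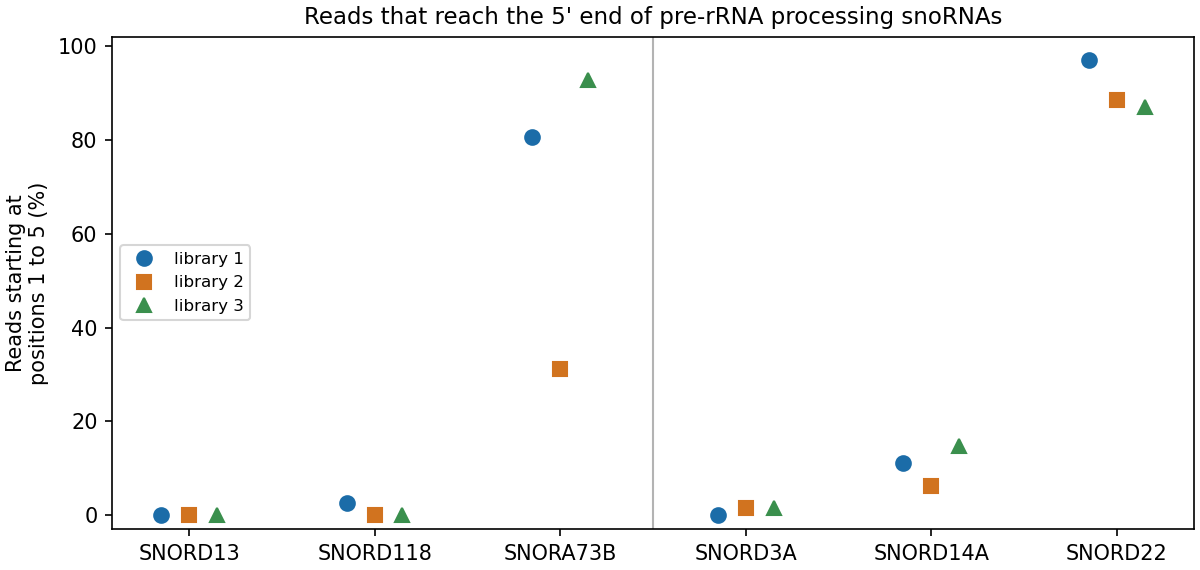
Share of reads (%) that start at positions 1 to 5 of the entry, for the 3 described snoRNAs (left of the line) and for 3 other pre-rRNA processing snoRNAs (right), one symbol per library. SNORD13, SNORD118 and SNORD3A lie between 0% and 2.67%, and SNORD22 between 87.1% and 97.1%.

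SNORD13 reads were mostly of a long form that begins at position 17 or 18 or of a short form at the 3′ end. Reads are ranked here and for the other snoRNAs by their mean percentage over the libraries, in which each library weighs the same whatever its depth. The commonest read ran from 18 to 104 with 19, 3 and 33 reads in libraries 1, 2 and 3, a mean of 31.3% ± 19 of SNORD13 reads (SD, n = 3). The next ran from 82 to 104, a 23-nt piece with 2, 11 and 2 reads, followed by 17 to 104 with 3, 1 and 9 reads. Library 3 was dominated by the long form and library 2 by the short one. Reads starting at 78 to 84 and ending at 103 or 104 numbered 25, 14 and 4, which is 40.3%, 58.3% and 6.15% of SNORD13 reads. Their starts differed between libraries, since the read from 81 to 104 had 11, 0 and 0 reads and the read from 78 to 104 had 6, 0 and 0. The 3′ end was shared by both forms, and 91.9%, 83.3% and 90.8% of SNORD13 reads ended in the last 5 positions.

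SNORD118 reads gave a similar picture with more scattered ends. The commonest read ran from 51 to 136 with 16, 10 and 45 reads, a mean of 31.0% ± 15 of SNORD118 reads (SD, n = 3). By mean percentage the next ran from 106 to 136 with 7, 3 and 1 reads. Reads from 50 to 136 numbered 1, 2 and 4. Reads from 106 to 115 that ended at 135 or 136 numbered 19, 15 and 6, or 25.3%, 34.9% and 6.45% of SNORD118 reads. A second set of short reads began at the same place as the long form, and the stretch from 51 to 77 printed above had 0, 1 and 7 reads. Reads of up to 40 nt starting at 50 or 51 numbered 2, 6 and 14, so in library 3 they outnumbered the 6 short reads that ended at the 3′ end, and in libraries 1 and 2 they did not. In SNORD13 only 0, 1 and 2 short reads began where its long form begins. Of SNORD118 reads, 78.7%, 76.7% and 74.2% ended in the last 5 positions.

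SNORA73B reads in libraries 1 and 3 were mostly long pieces from positions 1 to 3 whose 3′ end differed between libraries. The commonest read ran from 1 to 180 with 0, 4 and 74 reads in libraries 1, 2 and 3, and the next from 1 to 205, the whole entry, with 14, 0 and 0. Reads from positions 1 to 3 that ended at 178 to 182 numbered 4, 4 and 86, and those that ended at 183 or later numbered 28, 0 and 0. The full-length form was thus seen in library 1 and the form lacking the last 25 nt mostly in library 3. Over all snoRNAs, reads of over 185 nt numbered 39, 0 and 1, and 27 of the 39 in library 1 were SNORA73B reads. Reads of 178 to 182 nt numbered 15, 12 and 96 over all snoRNAs, of which 11, 8 and 11 were of snoRNAs other than SNORA73B. The part of the libraries' read-length range in the 3′ end of SNORA73B was not tested.

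Most short SNORA73B reads were pieces of the 3′ end, the stretch in capitals above. Reads of up to 40 nt that ended at 203 to 205 numbered 9, 8 and 4, and among them the read from 166 to 205 had 2, 2 and 0 and that from 167 to 205 had 2, 1 and 2. Reads starting at 176 to 186 and ending at 203 to 205, which would cover what the form ending at 180 lacks, numbered 0, 1 and 1. There were 12, 10 and 7 short reads in all, and 2 of the 7 in library 3 started at positions 1 to 3.

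**Figure D3:**
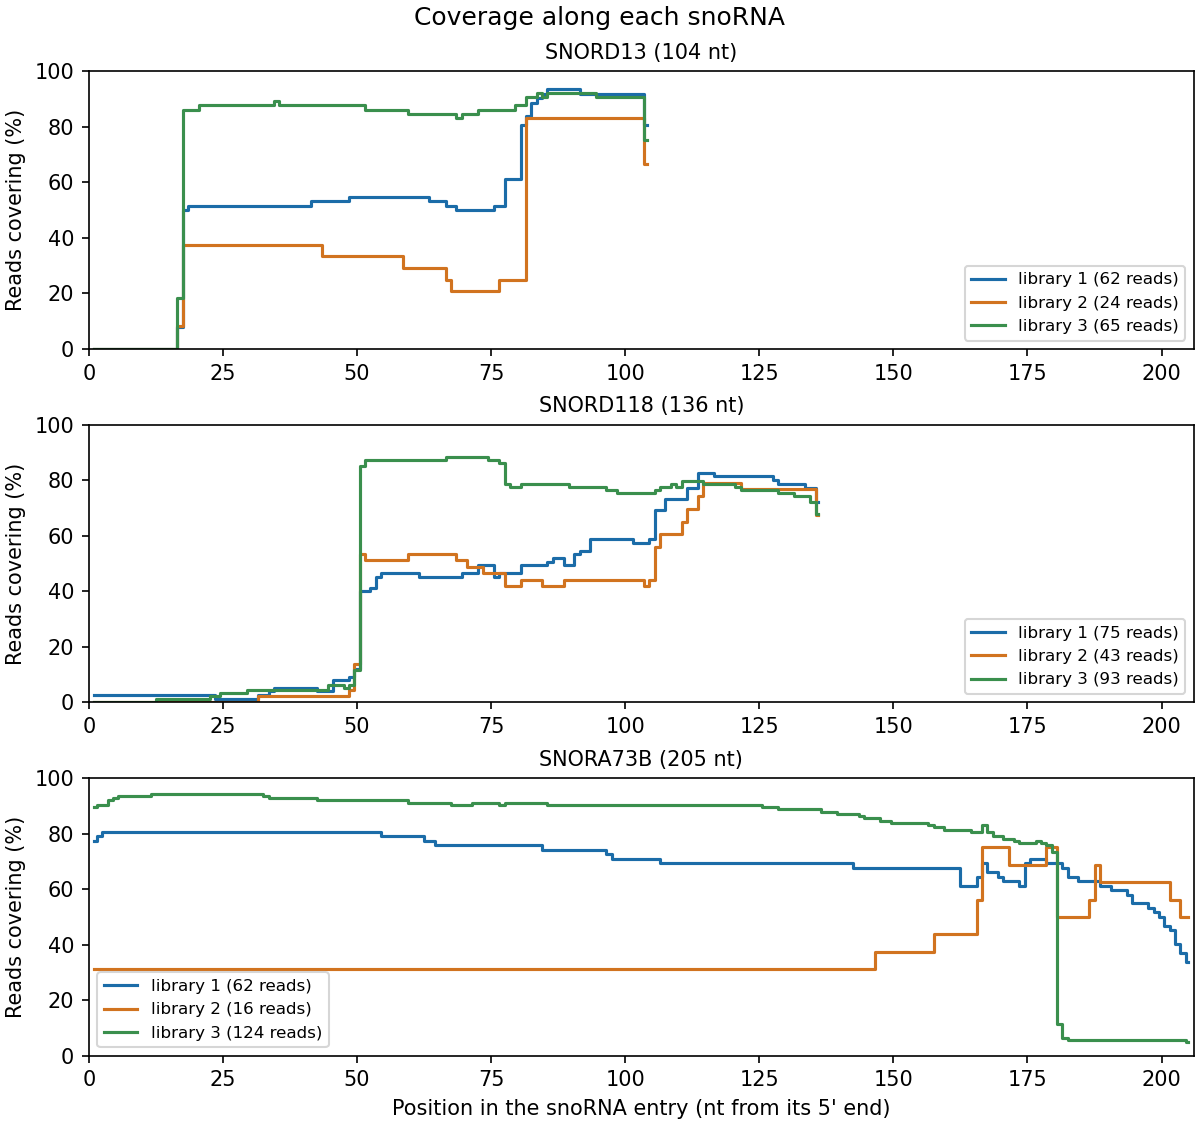
Share of a snoRNA's reads (%) that cover each position, counted in nt from the 5′ end of the entry, with one line per library. Coverage rises sharply near position 18 in SNORD13 and at position 51 in SNORD118, where a few reads begin earlier, and in SNORA73B it drops after position 180 in library 3, where 4.84% of reads cover the last base.

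Divided into 3 equal parts, SNORD118 had 2.01% ± 1.2 of its reads covering a position of the first part, 54.0% ± 19 of the middle part and 70.6% ± 6.4 of the last part on average (SD, n = 3). For SNORD13 these were 29.7% ± 13, 57.5% ± 27 and 76.7% ± 14. Both gained coverage toward the 3′ end in 3 of 3 libraries. For SNORA73B they were 68.0% ± 32, 64.5% ± 30 and 56.6% ± 5.8, with library 2 alone gaining toward the 3′ end.

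The position of reads was tested with edgeR's quasi-likelihood test on the counts of reads centred in the 3′ or the 5′ part of each snoRNA, over the 108 snoRNAs that had 10 or more such reads per library. SNORD13 had 58, 20 and 60 reads in the 3′ part and 4, 4 and 5 in the 5′ part. SNORD118 had 67, 36 and 78 reads in the 3′ part and 8, 6 and 15 in the 5′ part. In both, the 3′ part was ahead in 3 of 3 libraries, with log2 ratios of 3.27 ± 0.48 and 2.65 ± 0.33 (SE, n = 3) and edgeR adjusted p of 0.00153 and 0.000789. SNORA73B had 12, 11 and 7 reads in the 3′ part and 36, 5 and 117 in the 5′ part, a log2 ratio of -1.71 ± 0.95 (SE) that did not pass the edgeR test (adjusted p = 0.153). Without library 2, in which the 3′ part was ahead, the ratio was -2.86 and passed (edgeR adjusted p = 0.00613). Calls were common in this test, with 66.7% of the 108 snoRNAs called, 26.9% with more 3′ reads and 39.8% with more 5′ reads (43 snoRNAs, but 28 without library 3). With DESeq2 and its size factors the split of calls was 35 toward 3′ and 28 toward 5′, against 29 and 43 here. Full-length reads are centred near the middle, so this test reflects which end lacks bases as well as where short pieces lie. Using only reads that covered no more than 50% of the RNA, SNORD13 kept its call (2.00, edgeR adjusted p = 0.0147), SNORD118 lost it (1.44, adjusted p = 0.0865) and SNORA73B was at 1.03 (adjusted p = 0.260).

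Short reads made up a large and variable share of SNORD13 and SNORD118. Reads of up to 40 nt were 45.2%, 66.7% and 15.4% of SNORD13 reads in libraries 1, 2 and 3 (28, 16 and 10 reads), 38.7%, 55.8% and 22.6% of SNORD118 reads (29, 24 and 21) and 19.4%, 62.5% and 5.65% of SNORA73B reads (12, 10 and 7). Other box C/D snoRNAs together had 11.3%, 25% and 11.4%, and other box H/ACA snoRNAs 12.9%, 39.4% and 15.3%. SNORD13 and SNORD118 were above the other box C/D snoRNAs in 3 of 3 libraries, and SNORA73B was above the other box H/ACA snoRNAs in 2 of 3. All of the 3 snoRNAs had their highest share of short reads in library 2, as did both classes. The 3 snoRNAs had their lowest share in library 3, whereas both classes had theirs in library 1.

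Relative to the typical snoRNA, SNORD13 and SNORD118 had more short reads. In an edgeR quasi-likelihood test of short against longer reads over 125 snoRNAs, with TMM factors that set the typical snoRNA to 0, the log2 ratio was 1.92 ± 0.54 for SNORD13 and 1.81 ± 0.35 for SNORD118 (SE, n = 3; edgeR adjusted p = 0.0373 and 0.0167). Without library 1 the SNORD13 ratio was 1.41 and did not pass (edgeR adjusted p = 0.0663). SNORA73B, at 0.55 ± 0.66 (SE), did not pass (edgeR adjusted p = 0.567). Of the 125 snoRNAs, 34.4% were called, 20% with more and 14.4% with fewer short reads (18 snoRNAs, but 4 without library 3). The share of short reads falls when more long reads are captured, and at 205 nt the SNORA73B entry exceeds the longest reads of library 2 (181 nt) and library 3 (193 nt).

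The sizes of the short reads differed between the 3 snoRNAs. Their median length was 24, 23 and 24 nt for SNORD13, 29, 26 and 27 nt for SNORD118 and 31, 33.5 and 34 nt for SNORA73B in libraries 1, 2 and 3. Reads of 20 to 24 nt, the size of miRNAs, numbered 18, 14 and 3 for SNORD13, 6, 7 and 3 for SNORD118 and 1, 0 and 0 for SNORA73B. As a share of the snoRNA's reads they were 29% (95% interval 18.2% to 41.9%), 58.3% (36.6% to 77.9%) and 4.62% (0.962% to 12.9%) for SNORD13. They were 8.0% (2.99% to 16.6%), 16.3% (6.81% to 30.7%) and 3.23% (0.670% to 9.14%) for SNORD118. Other box C/D snoRNAs together had 2.21%, 4.11% and 2.57%, so SNORD13 and SNORD118 were higher in 3 of 3 libraries, but in library 3 the lower bounds of both intervals lay below that value. By mean share of such reads SNORD13 ranked 3 and SNORD118 ranked 9 of 108 box C/D snoRNAs. With this size in place of up to 40 nt, the edgeR ratio of SNORD13 was 3.23 (adjusted p = 2.00e-07). This rests on 18, 14 and 3 reads, whose share ranged between 4.62% and 58.3%. At up to 40 nt the edgeR adjusted p was 0.0373, so the smaller value is no sign of closer agreement among libraries. The ratio of SNORD118 lost its call at 1.25 (edgeR adjusted p = 0.210), and that of SNORA73B was -2.56 (adjusted p = 0.332).

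**Figure D4:**
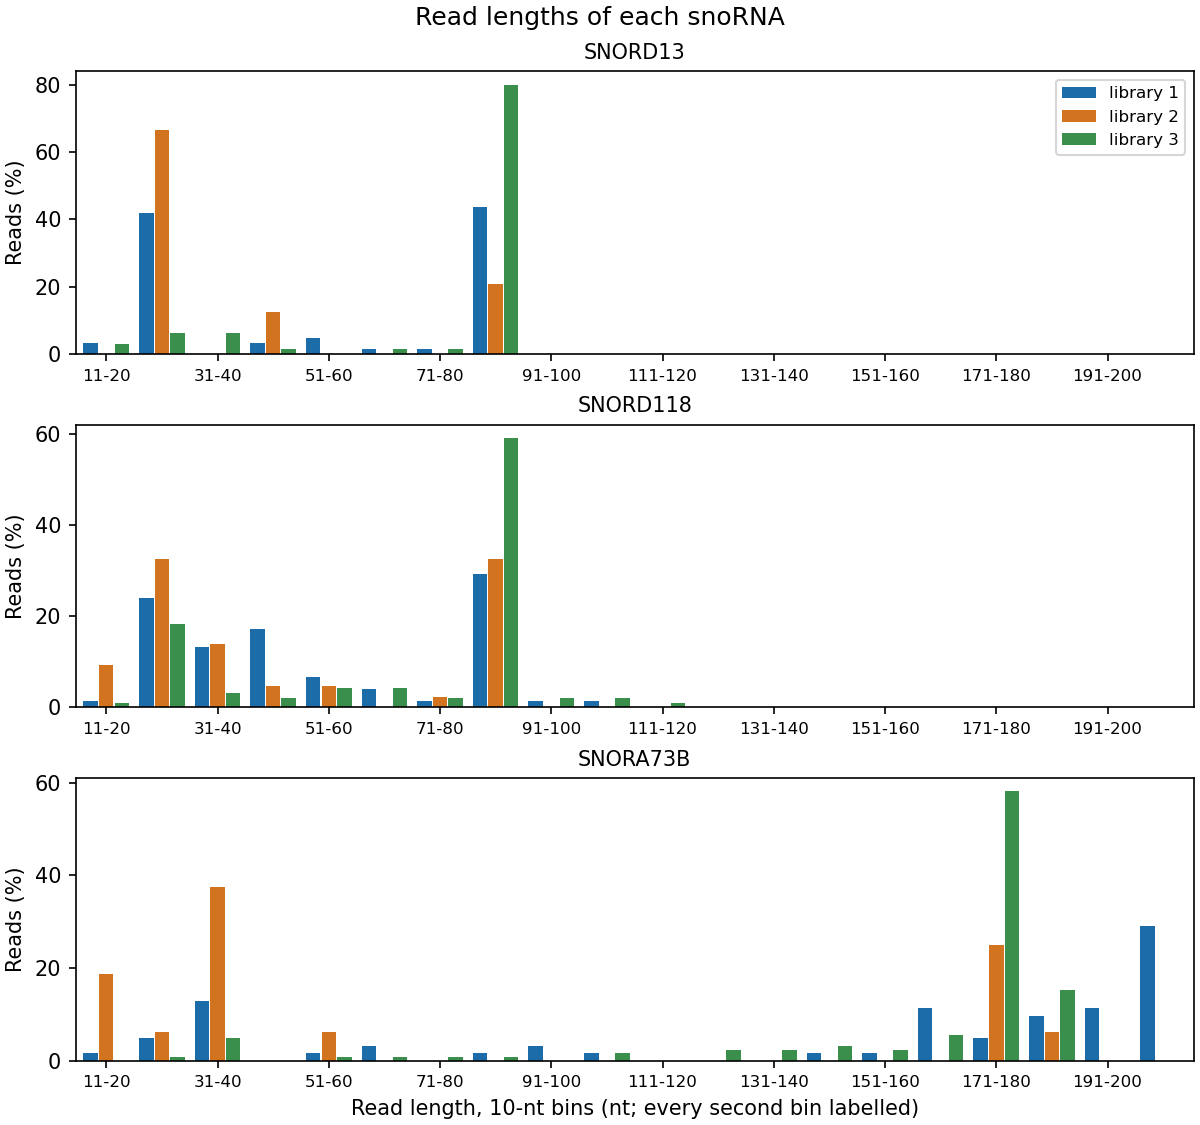
Share of each snoRNA's reads (%) by read length in bins of 10 nt, one bar per library. SNORD13 and SNORD118 have a long form of 81 to 90 nt and short pieces of up to 40 nt, and SNORA73B has its longest reads in library 1.

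No read of SNORD13 or SNORD118 spanned at least 90% of the RNA (0 of 151 and 0 of 211, which allow up to 1.99% and 1.42%). For SNORA73B such reads were 43.5%, 0% and 0% (27, 0 and 0 reads). Other box C/D snoRNAs together had 65.7% ± 6.9 and other box H/ACA snoRNAs 52.4% ± 17 (SD, n = 3). Over 106 other box C/D snoRNAs, the mean share per snoRNA had a median of 71.1% and ranged between 0% and 94.4%. A lack of such reads was thus not limited to SNORD13 and SNORD118. With a limit of 80% in place of 90%, SNORD13 had 47.6%, SNORD118 0.717% and SNORA73B 57.2% on average, since the SNORD13 form from 18 to 104 covers more than 80% of the RNA. Reads whose length differed from their span on the RNA, read here as gapped alignments, were 8.06%, 4.17% and 15.4% of SNORD13 reads, 18.7%, 4.65% and 18.3% of SNORD118 reads and 45.2%, 31.3% and 33.9% of SNORA73B reads. All reads of the 3 snoRNAs lay on the RNA's own strand.

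**Figure D5:**
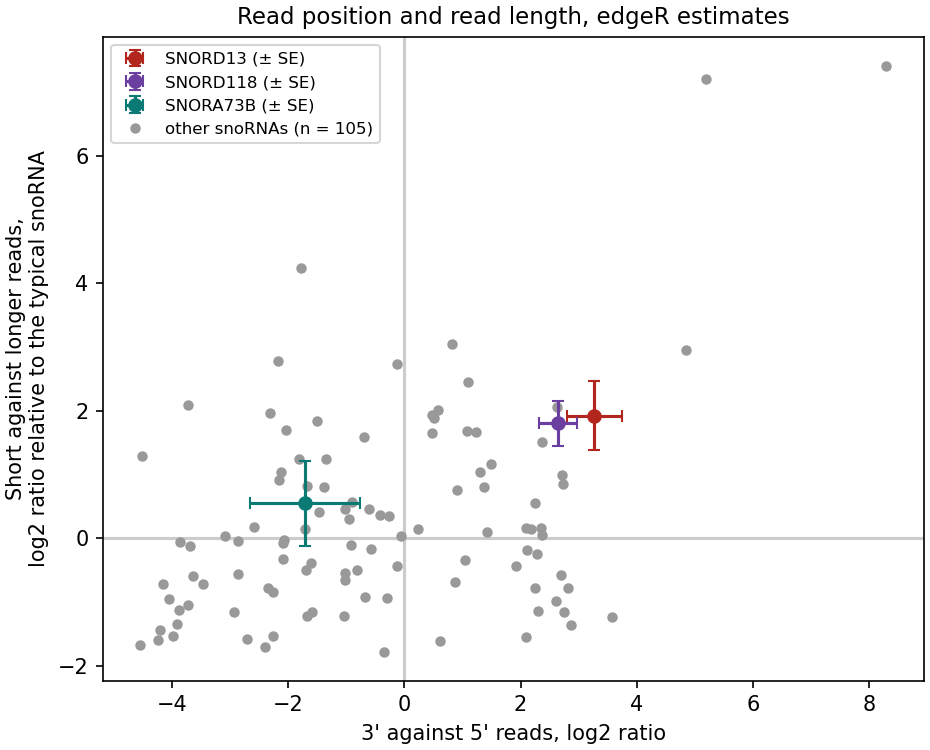
Each point is 1 of 108 snoRNAs in both edgeR tests, with the log2 ratio of 3′ to 5′ reads on the x axis and of short to longer reads, relative to the typical snoRNA, on the y axis; bars are the SE of the 3 described snoRNAs. SNORD13 and SNORD118 lie close together to the right and above 0 (3.27 and 1.92, 2.65 and 1.81), apart from SNORA73B (-1.71 and 0.55).

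Among the other snoRNAs of pre-rRNA processing, U3 and a U14 copy were also seldom read from the 5′ end, and U22 usually was. Of 17 listed genes, which include the 3 above, 11 had reads and 6 had enough for the tests. No entry with reads carried the names SNORD3B-1, SNORD3C, SNORD3D, SNORD14C, SNORD14D or SNORD14E. The entry named U3 was assigned to SNORD3A, and whether reads of other U3 copies lie under it was not tested. In the position test 3 of the 6 had more 3′ reads (SNORD14A, SNORD13 and SNORD118) and 1 had more 5′ reads (SNORD22), beside 26.9% and 39.8% of all snoRNAs tested. The median log2 ratio was 1.73 over the 6 and -0.75 over all. Apart from SNORD13, SNORD118 and SNORA73B, the ratios were 4.84 for SNORD14A, 0.82 for SNORD3A (not called) and -1.70 for SNORD22. In the length test 4 of the 6 had more short reads (SNORD3A, SNORD14A, SNORD13 and SNORD118) and 0 had fewer, beside 20% and 14.4% of all, with medians of 1.86 and -0.06. The list was chosen with earlier results of these data known, and the 6 include SNORD13, SNORD118 and SNORA73B. These counts and medians therefore do not test the list as a set.

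SNORD3A, the U3 RNA of early precursor cleavage, had 68, 71 and 124 counts, and its commonest start was position 76 (85 of 263 reads). Starts at positions 1 to 5 were 0%, 1.41% and 1.61% of its reads. U3 thus shared with SNORD13 and SNORD118 a lack of reads from the 5′ end. SNORD22, an intron-encoded snoRNA needed for 18S rRNA in frog oocytes, had 69, 26 and 85 counts with 97.1%, 88.5% and 87.1% of reads starting at positions 1 to 5. SNORD14A, an intron-encoded U14 copy, had 36, 16 and 82 counts with 11.1%, 6.25% and 14.6% starting there and its commonest start at position 68 (69 of 134 reads). The copy SNORD14B had 13, 4 and 11 counts, of which 27 of 28 started at positions 1 to 5. Any part of the cap, the promoter or the host intron in where reads start was not tested. The copy SNORA73A had 10, 6 and 5 counts with 3, 0 and 1 starting at positions 1 to 5. SNORA62 had 21, 4 and 11 counts with 17, 2 and 9 starting there. SNORA63 had 2, 6 and 26 counts with 1, 2 and 13 starting there. SNORD3B-2 had 3, 0 and 1 counts, of which 0 started there.

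The coverage of SNORD13 along 10 equal bins was most like that of SNORD14A, SNORD121A and SNORD81 among 124 other snoRNAs, with total variation distances (0 for the same shape, 1 for no overlap) of 0.122, 0.138 and 0.151 averaged over the libraries. The libraries differed from each other by 0.127 for SNORD13 itself, and the median over the 124 was 0.195. SNORD118 was nearest to SNORD14A (0.184), SNORD13 (0.192) and SNORD3A (0.223), with 0.101 between its own libraries and a median of 0.340. SNORA73B was nearest to SNORA81 (0.0655), SNORD11 (0.0673) and SNORD97 (0.0754), with 0.163 between its own libraries and a median of 0.0957. For SNORA73B all 3 distances, and for SNORD13 that to SNORD14A, were below the distance between its own libraries, whereas for SNORD118 all 3 were above it.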

How the data were processed

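Raw read counts were deposited by the authors as lists in which, per the file headers, a line holds the snoRNA, where a read starts and stops on it, its size and how often it was seen. GRCh38.p10 is the build named in the submitters' processing notes. Aligner, trimming and filters: not given in the sources used here. A deposited table of totals with 3 per-sample columns was not used. Of 260 entries, 251 were named through RefSeq symbols, and annotation and sequences came from GENCODE 29. SNORD13, SNORD118 and SNORA73B, the gene list and the tests were chosen with earlier results of these data known. They were named in full, as were the listed processing snoRNAs with reads, the 3 snoRNAs nearest in coverage and the commonest reads of each. Tests used edgeR 4.0.16 (library as block, Benjamini-Hochberg adjustment at 0.05, at least 10 counts in every library) and were tested on simulated data. DESeq2 1.42.0, with its poscounts size factors, was an alternative, with R 4.3.3, SciPy 1.17.1, Biopython 1.88, Python 3.11.15, matplotlib 3.10.9, NumPy 2.4.6 and pandas 2.3.3. The alternatives included other limits of size and position, distinct records, no gapped reads and each library left out.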

Additional observations from a re-analysis of the deposited data

How the results depend on the processing

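Over 25 results and 192 alternative values, 167 were counted as kept. Test ratios had to keep their direction and side of the threshold. Shares had to move by no more than the SD between libraries, and counts of calls had to stay within a set fold. These limits are wide. The 62 calls toward 5′ without library 2, against 43, were counted as kept. So was a SNORA73B share of short reads of 0.538% at 20 to 24 nt, against 29.2% ± 30 (SD). Counting each distinct record once put SNORD13, SNORD118 and SNORA73B at 0.376%, 0.778% and 0.704% of records, and the share of reads ending at the 3′ end at 70.9% for SNORD13 and 61.3% for SNORD118. With short reads of 20 to 24 nt the SNORD118 share was 9.17%, the length test made 7 calls of more and 6 of fewer short reads, and its ratios were 1.25 for SNORD118 and -2.56 for SNORA73B. With an 80% limit the full-length shares were 47.6%, 0.717% and 57.2%. With reads spanning at most 50% of the RNA the position test covered 44 snoRNAs with 10 calls toward 3′ and 11 toward 5′, and the ratios of SNORD118 and SNORA73B were 1.44 and 1.03. DESeq2 called 28 toward 5′, and without a filter the length test called 32 with fewer short reads. Without the replicate block the SNORA73B position ratio was -2.19 and passed (edgeR adjusted p = 0.0240). The pairing is by construction, since both parts come from the same library. A TMM size for each part moved all position ratios toward 3′ by a median of 0.44, and DESeq2 by 0.67.

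Leaving out each library in turn, the position test called between 28 (without library 3) and 62 (without library 2) snoRNAs with more 5′ reads, and the length test between 4 (without library 3) and 13 with fewer short reads. The SNORA73B position ratio lay between -2.86 (without library 2, edgeR adjusted p = 0.00613) and -0.38 (without library 3). The length ratio lay between 1.41 (without library 1) and 2.65 for SNORD13, and between -0.13 (without library 2) and 1.49 for SNORA73B. The cause of these changes was not tested. Low counts limit all shares: SNORA73B in library 2 rests on 16 reads.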
